A study of Mus musculus with 12 samples.

Results

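The genes described here encode the subunits of AMP-activated protein kinase (AMPK), together with Stk11, its main activating kinase, and Ppargc1a, a transcriptional coactivator that acts downstream of it. The members were chosen by name: the alpha subunits Prkaa1 and Prkaa2, the beta subunits Prkab1 and Prkab2, the gamma subunits Prkag1 and Prkag2, Stk11 and Ppargc1a. The choice was made with earlier results of these data known. All 8 were among the 13178 genes of the table of the virus experiment and among the 21650 genes of the table of the ribose experiment, and all 8 passed the filter on low values in both. The samples are labelled as dorsal root ganglion neurons of levels L4-6, whose axons run in the sciatic nerve, and their RNA also held transcripts of satellite glia, Schwann cells and blood cells. The mice were C57BL/6J and aged 8 weeks, and every group, controls included, had a spinal cord injury (SCI) 72 h before collection. In the virus experiment, mice had received an adeno-associated virus through the sciatic nerve for 4 weeks, which carried transketolase (AAV-TKT, 3 libraries) or green fluorescent protein (AAV-GFP, 3 libraries). In the ribose experiment, mice received 10% ribose (Ribose, 3 libraries) or its vehicle (Vehicle, 3 libraries). Tkt encodes transketolase, which interconverts sugar phosphates in the non-oxidative arm of the pentose phosphate pathway, and ribose is a pentose that can feed into it. The promoter and serotype of the virus, the route and length of ribose treatment and whether the libraries of a group came from separate mice were not given in the sources used here. If libraries of a group shared a mouse, the p-values below measure only the spread between these samples. No uninjured group was analysed here.

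AMPK is the energy sensor of the cell. It is a trimer of a catalytic alpha subunit, a beta subunit that holds the complex together and carries a glycogen-binding module, and a gamma subunit that binds AMP, ADP and ATP. When ATP falls, nucleotide binding to gamma favours phosphorylation of alpha by the STK11 (LKB1) complex, while CAMKK2 phosphorylates the same site in response to calcium. Active AMPK restrains lipid synthesis and mTORC1 and promotes autophagy and fuel oxidation, and PGC-1 alpha, the product of Ppargc1a, drives mitochondrial gene expression. In neurons AMPK is studied in axonal energy supply and in pain. RNA levels measure none of the phosphorylation steps.

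Neither transketolase delivery nor ribose gave a detectable change in the RNA of any of the 8 genes. In the comparison of AAV-TKT with AAV-GFP, 0 of 8 members passed an adjusted p of 0.05, against 0.0152% of all 13178 genes tested. In the comparison of Ribose with Vehicle, 0 of 8 passed, against 0.00724% of 13804 genes. At an unadjusted p under 0.05 the counts were also 0 of 8, against 10.6% of all genes in the virus experiment and 4.79% in the ribose experiment. For 0 of 8 members did all 3 treated libraries lie on one side of all 3 control libraries, which occurred for 18.5% and 9.63% of all genes in the virus and the ribose experiment. These p-values come from limma, a linear model that shares variance estimates between genes, fitted on log2(FPKM + 1) and adjusted by the Benjamini-Hochberg method over all genes of a table. FPKM counts sequenced fragments relative to gene length and library size, so levels of different genes can be set beside each other within a library. Tkt itself, the delivered gene, had 222.6, 259.1 and 261.9 FPKM in AAV-TKT, against 106.5, 101.7 and 98.1 FPKM in AAV-GFP, and was called higher (log2 difference 1.27, limma adjusted p = 0.0054).

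The levels of the members fell in a fixed outline in all 4 groups. The gamma subunit Prkag2 was the most abundant, followed by the alpha subunit Prkaa1. Prkab2, Stk11, Prkag1 and Prkaa2 formed a middle group in which most neighbours overlapped between libraries. Ppargc1a and then Prkab1 came last. In AAV-TKT, Prkag2 averaged 63.1 FPKM, Prkaa1 37.8, Prkab2 25.7, Stk11 24.6, Prkag1 23.0, Prkaa2 17.3, Ppargc1a 7.84 and Prkab1 2.24 FPKM. In AAV-GFP the means in the same order were 63.9, 37.9, 25.2, 23.8, 21.2, 18.3, 7.02 and 2.97 FPKM. In AAV-TKT the overlapping neighbours in this order were Prkab2 with Stk11 and Stk11 with Prkag1. In AAV-GFP they were Stk11 with Prkag1 and Prkag1 with Prkaa2. In Ribose the middle group ran Prkag1, Stk11, Prkab2 and Prkaa2, and in Vehicle it ran Stk11, Prkag1, Prkab2 and Prkaa2, with every neighbouring pair overlapping. Vehicle was also the only group in which the ranges of Ppargc1a and Prkab1 overlapped. Against all genes tested, Prkag2 lay above 90.2% and Prkab1 above 18.9% of genes by mean level in AAV-GFP.

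**Figure D1:**
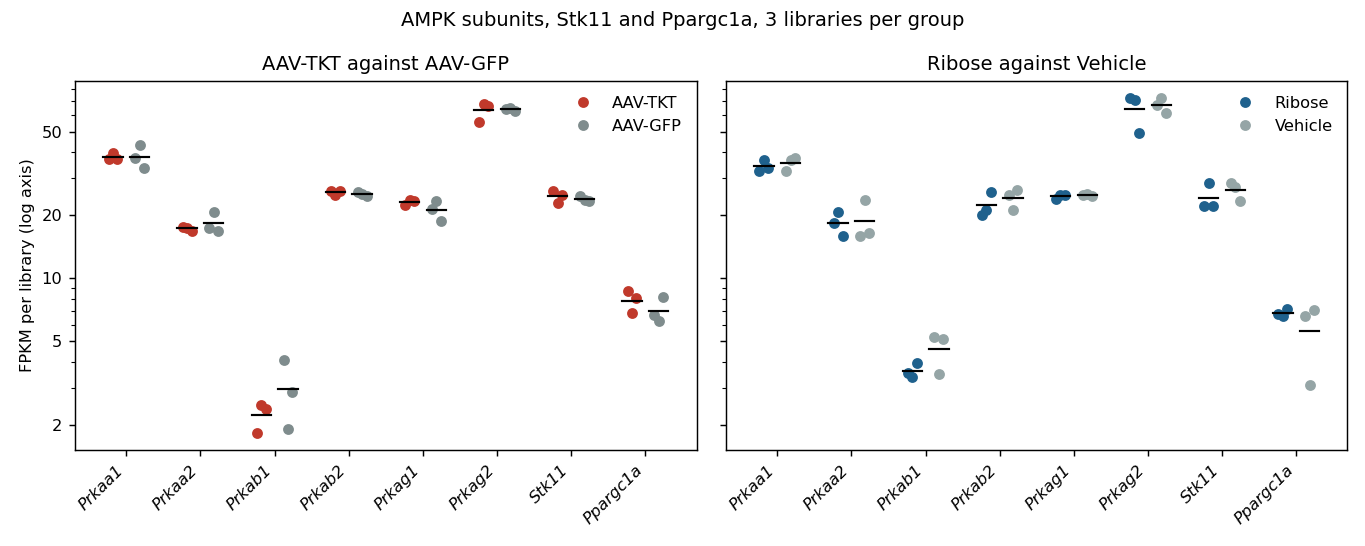
FPKM of each of the 8 genes on a log axis, with 1 point per library and a bar at the group mean; AAV-TKT and AAV-GFP are on the left and Ribose and Vehicle on the right. By group mean Prkag2 is at the top and Prkab1 at the bottom in every group, and the points of the paired groups overlap for all 8 genes.

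The beta pair was the most unequal, and the RefSeq sequences upstream of its start sites are shown because these genes differ most in level within a subunit type. That of Ppargc1a is added as the one transcriptional coactivator. The windows lie within the 250 bases before the start, leaving out annotated exons, and come from GRCm38.p6, written 5′ to 3′ on the gene's strand. Prkab1 is at chr5:116024509-116024678 on the minus strand, Prkab2 at chr3:97657962-97658192 on the plus strand, and Ppargc1a at chr5:51567727-51567975 on the minus strand. Capitals mark matches, on either strand, to the motifs searched, which were the TATA box TATAAA, the core TGACG of the cAMP response element, the GC box GGGCGG and the CAAT box motif CCAAT.
Prkab1: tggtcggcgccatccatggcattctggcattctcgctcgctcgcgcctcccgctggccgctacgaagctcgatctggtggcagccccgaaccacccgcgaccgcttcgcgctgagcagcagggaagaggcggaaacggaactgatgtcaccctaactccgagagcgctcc
Prkab2: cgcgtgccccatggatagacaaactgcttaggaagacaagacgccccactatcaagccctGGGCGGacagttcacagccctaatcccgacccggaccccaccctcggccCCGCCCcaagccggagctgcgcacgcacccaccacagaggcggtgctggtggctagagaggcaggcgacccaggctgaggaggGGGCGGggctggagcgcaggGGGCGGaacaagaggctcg
Ppargc1a: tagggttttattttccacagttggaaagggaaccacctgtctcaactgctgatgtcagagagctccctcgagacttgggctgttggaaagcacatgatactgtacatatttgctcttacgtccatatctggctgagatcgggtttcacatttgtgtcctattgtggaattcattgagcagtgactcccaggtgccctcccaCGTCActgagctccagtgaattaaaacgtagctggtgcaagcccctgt
The Prkab1 window of 170 bases held none of the motifs and 20 CpG dinucleotides, more than 94.3% of promoter windows of that length. The Prkab2 window of 231 bases held GGGCGG 3 times on the plus and 1 time on the minus strand, as at least 1 match did in 30.0% of windows. It held 17 CpG dinucleotides, more than 80.1% of windows. The Ppargc1a window of 249 bases held 1 TGACG on the minus strand, a motif present in 17.7% of windows, and 5 CpG dinucleotides against a median of 6. These matches describe the letters, and no measurement of factor binding was made.

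Prkaa1, the alpha 1 catalytic subunit, had 36.8, 39.6 and 37.0 FPKM in AAV-TKT, against 37.4, 43.0 and 33.4 FPKM in AAV-GFP. The AAV-TKT libraries lay inside the range of the AAV-GFP libraries, and the log2 difference was 0.0021 (SE 0.097, 95% interval -0.23 to 0.23, limma adjusted p = 0.996). With ribose treatment Prkaa1 had 32.6, 36.5 and 33.6 FPKM in Ribose, against 32.5, 36.7 and 37.5 FPKM in Vehicle. The groups overlapped, with a log2 difference of -0.053 (SE 0.11, 95% interval -0.32 to 0.21).

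Prkaa2, the alpha 2 subunit, had 17.6, 17.4 and 16.8 FPKM in AAV-TKT, against 17.4, 20.6 and 16.7 FPKM in AAV-GFP. AAV-GFP replicate 2 stood highest, as it did for Prkaa1, and the other 5 libraries lay close together. The log2 difference was -0.071 (SE 0.090, limma adjusted p = 0.784). In the ribose experiment, Prkaa2 levels were 18.4, 20.7 and 15.8 FPKM in Ribose, against 15.9, 23.7 and 16.5 FPKM in Vehicle. Both replicate 2 libraries were the highest of their group, and the log2 difference was -0.015 with a wide 95% interval of -0.46 to 0.42. Without Vehicle replicate 2 it was 0.16.

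Prkab1, the beta 1 subunit, was the scarcest member and varied most in the virus experiment. It had 1.83, 2.50 and 2.39 FPKM in AAV-TKT, against 4.09, 1.92 and 2.89 FPKM in AAV-GFP. AAV-GFP replicate 1 was the highest and AAV-TKT replicate 1 the lowest, and the log2 difference was -0.26 (SE 0.21, limma adjusted p = 0.644). Without AAV-GFP replicate 1 the difference was -0.063. After ribose treatment it had 3.52, 3.40 and 3.96 FPKM in Ribose, against 5.26, 3.49 and 5.13 FPKM in Vehicle. Vehicle replicate 2 lay among the Ribose libraries while the other two Vehicle libraries lay above them. The log2 difference was -0.27 (SE 0.21, limma adjusted p = 1).

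Prkab2, the beta 2 subunit, was the steadiest member in the virus experiment. It had 25.9, 24.9 and 26.2 FPKM in AAV-TKT, against 25.7, 25.3 and 24.7 FPKM in AAV-GFP. The log2 difference was 0.024 (SE 0.061, 95% interval -0.12 to 0.17), and its coefficient of variation over the 6 libraries was 2.25%. Of the 1318 genes in its class of similar level, 1.44% had a smaller spread within groups. That share was 43.5% in the ribose experiment, with 20.03, 21.2 and 25.7 FPKM in Ribose, against 25.0, 21.2 and 26.3 FPKM in Vehicle. The groups overlapped, at a log2 difference of -0.11 (SE 0.15).

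Prkag1, the gamma 1 subunit, had 22.2, 23.5 and 23.2 FPKM in AAV-TKT, against 21.3, 23.4 and 18.8 FPKM in AAV-GFP. AAV-GFP replicate 3 was the lowest, and the log2 difference was 0.12 (SE 0.089, limma adjusted p = 0.63). Its levels were 23.9, 25.0 and 24.9 FPKM in Ribose, against 24.8, 25.3 and 24.7 FPKM in Vehicle. These 6 libraries differed by a coefficient of variation of 1.81%, and 0.362% of the 1380 genes at its level had a smaller spread within groups. Its log2 difference was -0.018 (SE 0.11, 95% interval -0.27 to 0.23).

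Prkag2, the gamma 2 subunit, had 55.4, 67.7 and 66.3 FPKM in AAV-TKT, against 64.1, 65.0 and 62.6 FPKM in AAV-GFP. AAV-TKT replicate 1 was the lowest library, the other two were the highest, and the log2 difference was -0.022 (SE 0.087). The gamma 2 subunit had 72.3, 70.5 and 49.0 FPKM in Ribose, against 66.9, 72.4 and 61.2 FPKM in Vehicle. Ribose replicate 3 stood below all other libraries, and the log2 difference was -0.081 (SE 0.17), or 0.097 without that library. The muscle-type subunit Prkag3 was listed in the ribose table alone, at 0, 0 and 0.218 FPKM in Ribose, against 0, 0 and 0.177 FPKM in Vehicle, below the filter.

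Stk11, the LKB1 kinase, had 26.0, 22.7 and 24.9 FPKM in AAV-TKT, against 24.7, 23.5 and 23.3 FPKM in AAV-GFP. The AAV-TKT libraries spanned the AAV-GFP range, at a log2 difference of 0.040 (SE 0.073, 95% interval -0.13 to 0.21). Stk11 levels were 22.1, 28.5 and 22.1 FPKM in Ribose, against 28.4, 27.3 and 23.3 FPKM in Vehicle. Ribose replicate 2 was the highest of all 6 while the other two Ribose libraries were the lowest, and the log2 difference was -0.12 (SE 0.15).

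Ppargc1a, which encodes PGC-1 alpha, had 8.66, 6.81 and 8.04 FPKM in AAV-TKT, against 6.69, 6.24 and 8.13 FPKM in AAV-GFP. The highest AAV-GFP library lay above 2 of the AAV-TKT libraries, and the log2 difference was 0.14 (SE 0.12, limma adjusted p = 0.674). The coactivator had 6.79, 6.62 and 7.17 FPKM in Ribose, against 6.64, 3.09 and 7.04 FPKM in Vehicle. Only Vehicle replicate 2 stood apart from the other 5 libraries. The log2 difference of 0.32 (SE 0.28, 95% interval -0.34 to 0.97, limma adjusted p = 1) was 0.0037 without that library.

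For each of the 8 members a two-sided exact permutation test over 3 against 3 libraries, which cannot go below 0.1, gave p between 0.3 and 1 in both experiments. The limma adjusted p-values lay between 0.63 and 0.996 in the virus experiment and rounded to 1 for all 8 in the ribose experiment. On the scale of fold in FPKM + 1, the 95% intervals in the virus experiment ran from 0.855 to 1.17 for Prkaa1, 0.823 to 1.10 for Prkaa2 and 0.921 to 1.12 for Prkab2. They were widest for Prkab1, from 0.596 to 1.17. Prkag1 in the ribose experiment had a fold interval of 0.832 to 1.17, while Ppargc1a had one of 0.792 to 1.96. A 2-fold change in FPKM + 1 lay outside the intervals of all 8 members in both experiments. The median log2 difference of the 8 members was 0.013 in the virus experiment, where 5 were positive, against a median of 0.014 over all genes. With ribose it was -0.067, where 1 was positive, against -0.023 over all genes.

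**Figure D2:**
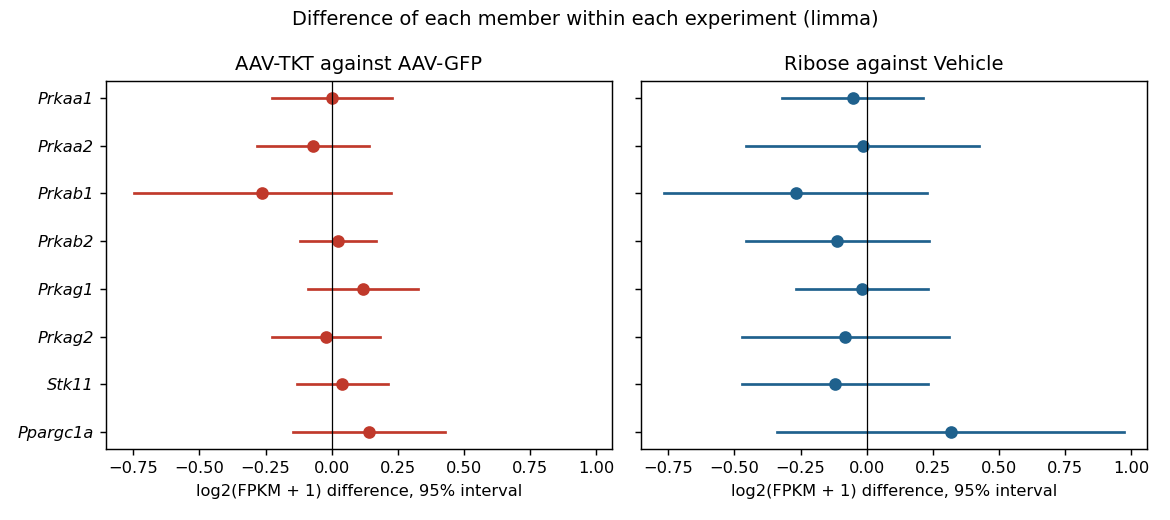
Log2(FPKM + 1) difference of each gene with its 95% interval from limma, AAV-TKT minus AAV-GFP on the left and Ribose minus Vehicle on the right. All 16 intervals include 0, and they are widest for Prkab1 on the left and Ppargc1a on the right.

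The balance within the subunit pairs did not differ detectably between the groups. Prkaa2 made up 31.4 ± 0.957% of the summed alpha FPKM in AAV-TKT and 32.5 ± 0.795% in AAV-GFP (SD, n = 3 each; two-sided exact permutation p = 0.2). Its share was 34.7 ± 2.36% in Ribose and 34.2 ± 4.48% in Vehicle (SD, n = 3 each; exact p = 0.9), with Vehicle replicate 2 highest at 39.2%. Prkab2 made up 92.0 ± 1.30% of the beta FPKM in AAV-TKT and 89.6 ± 3.35% in AAV-GFP (SD, n = 3 each; exact p = 0.3). Its share was 86.0 ± 0.838% in Ribose and 84.1 ± 1.67% in Vehicle (SD, n = 3 each; exact p = 0.2). Prkag2 made up 73.2 ± 1.59% of the gamma FPKM of Prkag1 and Prkag2 in AAV-TKT and 75.1 ± 1.70% in AAV-GFP (SD, n = 3 each; exact p = 0.3). Its share was 71.7 ± 4.76% in Ribose and 72.8 ± 1.44% in Vehicle (SD, n = 3 each; exact p = 0.9). Adjusted over the 3 shares of an experiment, the exact p-values lay between 0.3 and 0.9. In all 12 libraries Prkaa1, Prkab2 and Prkag2 were the larger of their pair. The pairs also differed in their sums. In AAV-TKT the alpha, beta and gamma pairs summed to 55.1, 27.9 and 86.1 FPKM, and in AAV-GFP to 56.2, 28.2 and 85.0 FPKM, so the beta subunits were the least abundant as RNA.

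**Figure D3:**
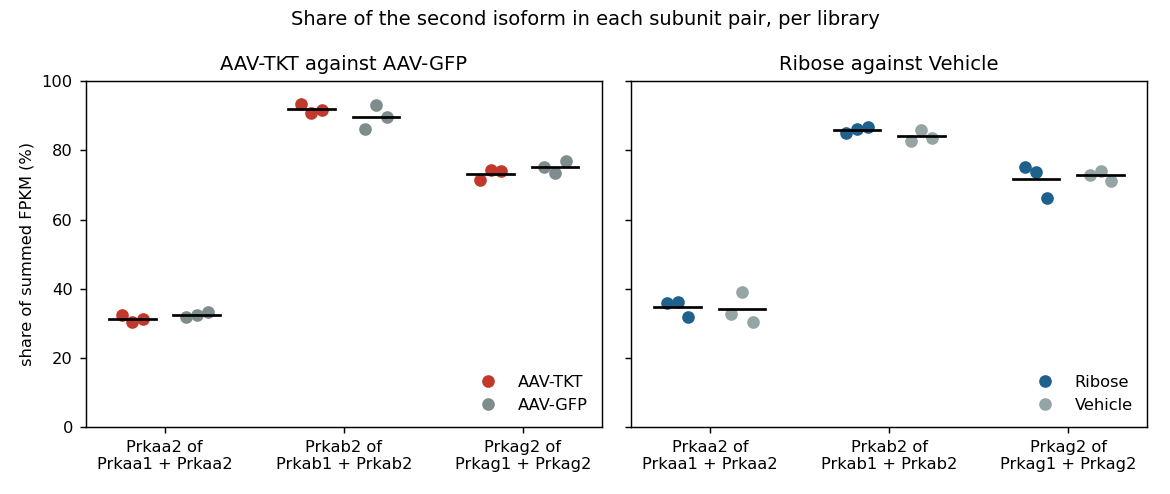
Share of Prkaa2, Prkab2 and Prkag2 in the summed FPKM of their subunit pair, in percent, with 1 point per library and a bar at the group mean. The alpha share stays between 30.5% and 39.2% and the beta share above 82.6% in the 12 libraries.

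The libraries of the ribose experiment were less alike than those of the virus experiment, with Pearson correlations of log2(FPKM + 1) between libraries of 0.924 to 0.966 and of 0.972 to 0.985. Vehicle replicate 2 held the lowest summed level of 12 large-diameter neuron markers, 664 FPKM, against 841 to 1642 FPKM in the other 5, and the highest of 14 non-peptidergic nociceptor markers, 991 FPKM. Ribose replicate 2 held the lowest sum of 10 satellite glia markers, 300.2 FPKM. In Ribose, 9 listed markers of skeletal muscle summed to 22.0, 13.4 and 29.3 FPKM, against 11.8, 4.61 and 4.58 FPKM in Vehicle. Of the 5 that could be tested, 4 had an unadjusted p under 0.05, against 4.79% of all genes, and none was called. None of the skeletal muscle markers was listed in the virus table, which holds no gene with a mean under 1 FPKM. In the virus experiment, 11 neutrophil markers summed to 20.2 to 32.8 FPKM in AAV-TKT and 98.3 to 266 FPKM in AAV-GFP. All 11 were separated downward, against 7.2% of all genes, without passing the threshold. The 8 listed macrophage markers summed to 14.3 to 20.2 FPKM in AAV-TKT and 39.6 to 53.2 FPKM in AAV-GFP, and 12 pan-neuronal markers to 8352 to 9363 FPKM in AAV-TKT and 6990 to 7947 FPKM in AAV-GFP. Large-diameter marker sums were also higher, at 1655 to 1794 FPKM in AAV-TKT and 1327 to 1512 FPKM in AAV-GFP. Lower and not overlapping were the sums of non-peptidergic markers (424 to 459 FPKM in AAV-TKT and 465 to 542 FPKM in AAV-GFP) and Schwann markers (498 to 532 FPKM in AAV-TKT and 583 to 623 FPKM in AAV-GFP). So were those of red cell markers (83.8 to 106 FPKM in AAV-TKT and 126 to 490 FPKM in AAV-GFP). Only 2 of 10 endothelial and mural markers were listed, with sums of 24.9 to 32.1 FPKM in AAV-TKT and 37.3 to 53.6 FPKM in AAV-GFP. Of these 2 genes, 1 was separated downward, against 7.2% of all genes. Schwann sums were lower with ribose too, at 507 to 622 FPKM in Ribose and 658 to 771 FPKM in Vehicle. The mean log2 deviation of these 12 markers overlapped, at -0.81 to 0.17 in Ribose and -0.14 to 0.42 in Vehicle. Of the 11 tested there, 1 was separated downward, against 5.35% of all genes. All 12 pan-neuronal markers were listed in both tables. In such mixed tissue, fewer cells of a type and less RNA per cell cannot be told apart.

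**Figure D4:**
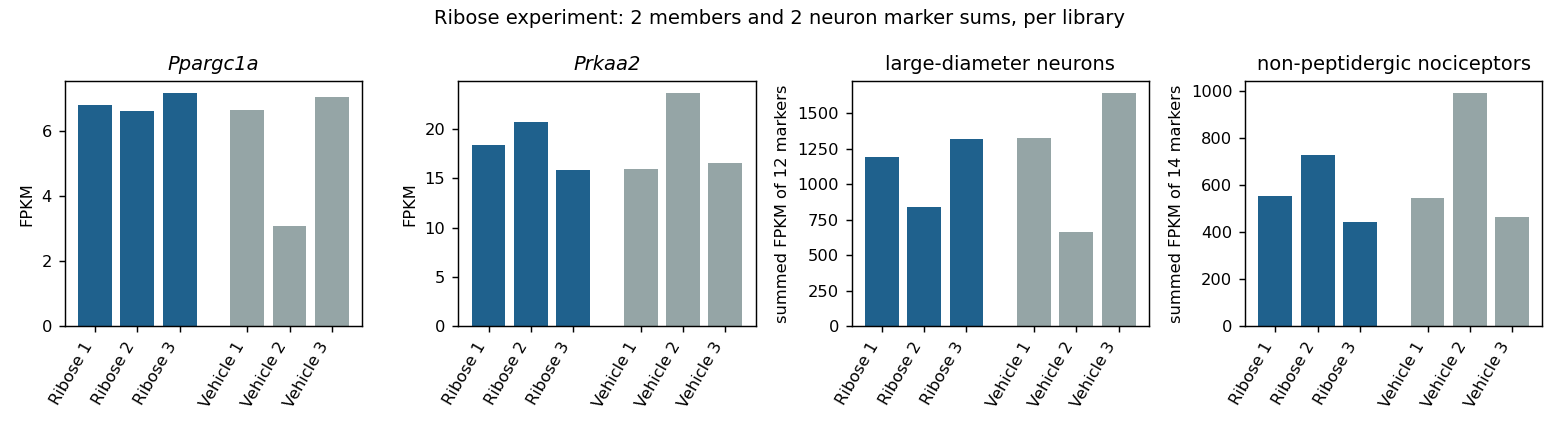
Prkaa2 and Ppargc1a FPKM beside the summed FPKM of large-diameter and non-peptidergic marker genes in the 6 libraries of the ribose experiment. Vehicle replicate 2 has the highest Prkaa2 (23.7 FPKM), the lowest Ppargc1a (3.09 FPKM) and the lowest large-diameter sum (664 FPKM).

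The library with the highest Prkaa2 and the lowest Ppargc1a in the ribose experiment was also the one with the lowest large-diameter marker sum. In the virus experiment AAV-GFP replicate 2 had the highest Prkaa2 and the lowest Ppargc1a, while the lowest large-diameter sum was that of AAV-GFP replicate 3 (1327 FPKM, against 1466 FPKM in AAV-GFP replicate 2). The part of the cell mix in the spread of these genes was not tested. Without both replicate 2 libraries the log2 difference of Ribose against Vehicle was 0.071 for Prkaa2 and 0.026 for Ppargc1a. Across the 6 libraries of an experiment, Prkaa2 and Ppargc1a ran in opposite directions, with Pearson r of -0.646 in the virus and -0.812 in the ribose experiment. Prkaa1 and Prkaa2 had r of 0.837 and 0.495. Only some of the pairs among the members are given here. Prkaa1 with Prkag1 had r of 0.813 and 0.533, and Prkab2 with Stk11 had 0.861 and -0.193. These are descriptions over the 6 libraries of each experiment, with no test.

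Among 11990 protein-coding genes tested in both tables, the genes whose levels over the libraries most resembled each member were taken by the lower of its Pearson correlations in the virus and ribose tables, 6 libraries each. Prkaa2 ran closest to Mex3c, an RNA-binding ubiquitin ligase (r = 0.972 and 0.985), and Clgn, an endoplasmic reticulum chaperone (0.964 and 0.962). Prkag1 ran closest to Gtf3c5, a subunit of an RNA polymerase III factor (0.961 and 0.969), and 2900011O08Rik (0.933 and 0.915). Prkag2 ran closest to Mrps6, a mitochondrial ribosomal protein (0.955 and 0.955), and Thumpd3 (0.934 and 0.958). Prkaa1 ran closest to Dym (0.956 and 0.950) and Bod1l (0.949 and 0.893). For Stk11 the nearest genes were Unc45a, a myosin chaperone (0.931 and 0.924), and Egln1, an oxygen-sensing prolyl hydroxylase (0.958 and 0.861). Ppargc1a had Mdga1 (0.892 and 0.966) and H2afj (0.934 and 0.850). Prkab1 had Sp100 (0.906 and 0.880) and Fam171a1 (0.877 and 0.905), and Prkab2 had Arid5b (0.885 and 0.886) and Pafah1b2 (0.865 and 0.851). With 6 libraries and so many genes, high values are found for any gene, and they carry no test.

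The genes around AMPK were grouped in lists, which were drawn up with earlier results of these data known. In either experiment 0 genes of any list passed the adjusted threshold. Of the 8 upstream kinases and scaffolds in the virus experiment, 1 was separated upward and 1 downward. Camkk1, a calcium-dependent kinase of AMPK, had 15.5, 15.4 and 13.2 FPKM in AAV-TKT, against 12.9, 12.0 and 10.9 FPKM in AAV-GFP (log2 difference 0.28, limma adjusted p = 0.412). Its relative Camkk2, the isoform best known for AMPK, had 6.16, 5.36 and 6.21 FPKM in AAV-TKT, against 6.82, 6.92 and 7.76 FPKM in AAV-GFP (log2 difference -0.24, limma adjusted p = 0.444). The libraries of the groups did not overlap for either gene, which occurred for 11.3% of all genes upward and 7.2% downward. Cab39, the scaffold MO25 of the LKB1 complex, had a log2 difference of 0.13 with overlapping groups.

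The same list in the ribose experiment held Stradb, a pseudokinase partner of LKB1. It had 15.9, 13.7 and 20.5 FPKM in Ribose, against 11.0, 7.97 and 7.08 FPKM in Vehicle. All Ribose libraries lay above all Vehicle libraries, which occurred upward for 4.28% of genes, and the log2 difference of 0.87 (SE 0.21) had a limma adjusted p of 0.766. The skeletal muscle marker sum was also higher in every Ribose library than in every Vehicle library, and its part in this value was not tested. Strada, its relative, overlapped between the groups at a log2 difference of -0.13.

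Of 11 AMPK regulators, 1 was separated upward and none downward in the virus experiment, against 11.3% and 7.2% of all genes. With ribose 1 was separated upward and 2 downward, against 4.28% and 5.35% of all genes. Lamtor1, part of the lysosomal complex where AMPK is activated, had 43.3, 42.3 and 40.0 FPKM in AAV-TKT, against 39.3, 33.7 and 38.9 FPKM in AAV-GFP. In Ribose it had 45.8, 34.2 and 40.9 FPKM, against 48.4, 49.1 and 53.1 FPKM in Vehicle. Its log2 differences were 0.17 and -0.32 in the virus and the ribose experiment (limma adjusted p = 0.50 and 1). Axin1, a scaffold at the same site, had 2.76, 2.22 and 2.57 FPKM in AAV-TKT, against 4.90, 2.30 and 6.95 FPKM in AAV-GFP, where replicate 2 alone lay among the AAV-TKT libraries. The folliculin partner Fnip2 had log2 differences of -0.25 and 0.28 in the virus and the ribose experiment, and the stress-induced Sesn3 had -0.25 in the ribose experiment. Of 11 AMPK-related kinases tested in the virus experiment, 3 were separated upward and 1 downward, against 11.3% and 7.2% of all genes. Brsk1, a kinase of neuronal polarity that LKB1 activates, had 91.8, 74.9 and 75.2 FPKM in AAV-TKT, against 65.4, 61.9 and 64.0 FPKM in AAV-GFP (log2 difference 0.33, limma adjusted p = 0.378). The salt-inducible kinases Sik1 and Sik3 had log2 differences of -0.21 and 0.12. Sik2, Sik1 and Mark2 led this list in the ribose experiment at log2 differences of 0.81, 0.41 and 0.21, with 1 of 11 genes separated upward and 1 downward, against 4.28% and 5.35% of all genes. With 1 library left out, the value of Sik2 ran from 0.52 (without Ribose replicate 3) to 1.37 (without Ribose replicate 2). Sik1 was 0.19 without Ribose replicate 1. Mark2 was 0.10 without Ribose replicate 3, 0.13 without Vehicle replicate 3 and 0.33 without Ribose replicate 1.

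Of 13 direct metabolic substrates, 1 was separated upward in the virus experiment, against 11.3% of all genes, and 1 downward in the ribose experiment, against 5.35%. Mlycd, malonyl-CoA decarboxylase, averaged 9.97 ± 0.329 FPKM in AAV-TKT and 8.78 ± 0.651 FPKM in AAV-GFP (SD, n = 3 each). The lipase Pnpla2 and the glucose transport regulator Tbc1d1 had log2 differences of 0.12 and -0.15. Srebf1, the lipid synthesis factor SREBP-1, was the leading gene with ribose and averaged 20.6 ± 3.49 FPKM in Ribose and 27.9 ± 4.10 FPKM in Vehicle (SD, n = 3 each; log2 difference -0.43), with overlapping libraries. Gfpt1, of the hexosamine pathway, and Acaca, acetyl-CoA carboxylase, had log2 differences of -0.19 and 0.20.

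The list of mTORC1 and autophagy genes had 7 of 13 members separated upward and 1 downward in the virus experiment, against 11.3% and 7.2% of all genes. Its median log2 difference was 0.080, against 0.014 over all genes. When the libraries were scaled to equal totals the median was 0.024, against -0.037 over all genes. At an unadjusted p under 0.05 the list had 0 of 13. It was drawn up with earlier results of these data known, so these contrasts with all genes are descriptions only. Rptor, the raptor subunit of mTORC1, had 22.3, 17.0 and 16.8 FPKM in AAV-TKT, against 15.7, 14.9 and 15.6 FPKM in AAV-GFP. Becn1, the autophagy factor Beclin 1, averaged 93.4 ± 15.1 FPKM in AAV-TKT and 78.0 ± 2.28 FPKM in AAV-GFP (SD, n = 3 each), and Atg13, part of the ULK1 complex, had a log2 difference of 0.16. AAV-TKT replicate 1 was the highest library for both Rptor and Becn1, whose log2 differences of 0.25 and 0.25 were 0.12 and 0.12 without it. Beside this list, the summed pan-neuronal and large-diameter markers were higher, and the Schwann, macrophage and neutrophil markers lower, in every AAV-TKT than in every AAV-GFP library, and their part in its values was not tested. For the same list the median was 0.0038 in the ribose experiment, with 1 of 13 separated upward and 1 downward, against 4.28% and 5.35% of all genes. Ulk1, the autophagy kinase, had 26.3, 22.4 and 27.4 FPKM in Ribose, against 19.8, 21.2 and 19.96 FPKM in Vehicle (log2 difference 0.30, limma adjusted p = 1). Akt1s1 and Becn1 had log2 differences of -0.49 and -0.16 there. With 1 library left out, Akt1s1 ran from -0.82 to -0.29.

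Among 13 transcription and mitochondrial dynamics substrates in the virus experiment, 1 was separated upward and 3 downward, against 11.3% and 7.2% of all genes, at a median log2 difference of -0.11. The CREB coactivators Crtc1, Crtc2 and Crtc3 had log2 differences of 0.16, -0.11 and -0.28, where Crtc2 was added after its value was seen, and the antioxidant factor Nfe2l2 had -0.19. None of the 13 was separated in the ribose experiment, against 4.28% of all genes upward and 5.35% downward. Hdac5, Nfe2l2 and Foxo1 led at log2 differences of 0.31, -0.31 and -0.49. With 1 library left out they ran from 0.18 to 0.40, -0.45 to -0.20 and -0.70 to -0.27.

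The partners and targets of PGC-1 alpha held no called gene either. Of 20 coactivators and partners tested in the virus experiment, 1 was separated upward and 2 downward, against 11.3% and 7.2% of all genes. The receptor coactivator Ncoa3 had a log2 difference of -0.19, and the orphan receptors Esrrg and Esrrb had 0.23 and 0.28. Of 19 PGC-1 target genes tested, 4 were separated upward, against 11.3% of all genes, and none downward, at a median of 0.066. Cox4i1, a cytochrome oxidase subunit, averaged 342 ± 17.8 FPKM in AAV-TKT and 289.5 ± 51.9 FPKM in AAV-GFP (SD, n = 3 each; log2 difference 0.26). Polg, the mitochondrial DNA polymerase, and Cpt1c, the neuronal carnitine palmitoyltransferase, had log2 differences of 0.28 and 0.15. Without AAV-TKT replicate 1 the value of Polg was 0.11. With ribose, 2 of 20 partners were separated upward, against 4.28% of all genes. Gabpa, a factor of mitochondrial gene promoters, Pparg, a nuclear receptor, and Ncoa1 had log2 differences of 0.42, 0.77 and 0.20. With 1 library left out, Pparg ran from 0.47 to 0.98. Of the 19 targets there, 2 were separated downward, against 5.35% of all genes, and the median was -0.15. Cox5b, another oxidase subunit, had 132, 145 and 113 FPKM in Ribose, against 157, 158 and 167 FPKM in Vehicle (log2 difference -0.31, limma adjusted p = 1). Sod2 had a log2 difference of -0.24, or -0.13 without Ribose replicate 1, and Cycs had -0.37, or -0.14 without Ribose replicate 3.

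Enzymes that buffer the adenylate pool sensed by AMPK had 2 of 11 tested genes separated upward in the virus experiment, against 11.3% of all genes. Ak1, adenylate kinase, had 71.7, 67.4 and 64.4 FPKM in AAV-TKT, against 57.1, 56.7 and 50.1 FPKM in AAV-GFP (log2 difference 0.31, limma adjusted p = 0.378). Ckmt1, the mitochondrial creatine kinase, averaged 167 ± 7.99 FPKM in AAV-TKT and 139 ± 15.0 FPKM in AAV-GFP (SD, n = 3 each; log2 difference 0.27). The cytosolic creatine kinase Ckb overlapped at 0.14. The pan-neuronal marker sum was higher in AAV-TKT as well, and its part in these values was not tested. None of the 13 tested with ribose was separated, against 4.28% of all genes upward and 5.35% downward. Ampd1, the muscle AMP deaminase, had 2.90, 0.172 and 2.79 FPKM in Ribose, against 0.295, 0.0667 and 0.0646 FPKM in Vehicle, beside the skeletal muscle sums above. Adk had a log2 difference of -0.29, which was -0.088 without Vehicle replicate 2, -0.11 without Ribose replicate 3 and -0.48 without Ribose replicate 2. Ak4 had 0.53, which was 0.052 without Vehicle replicate 3 and 0.19 without Ribose replicate 1.

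**Figure D5:**
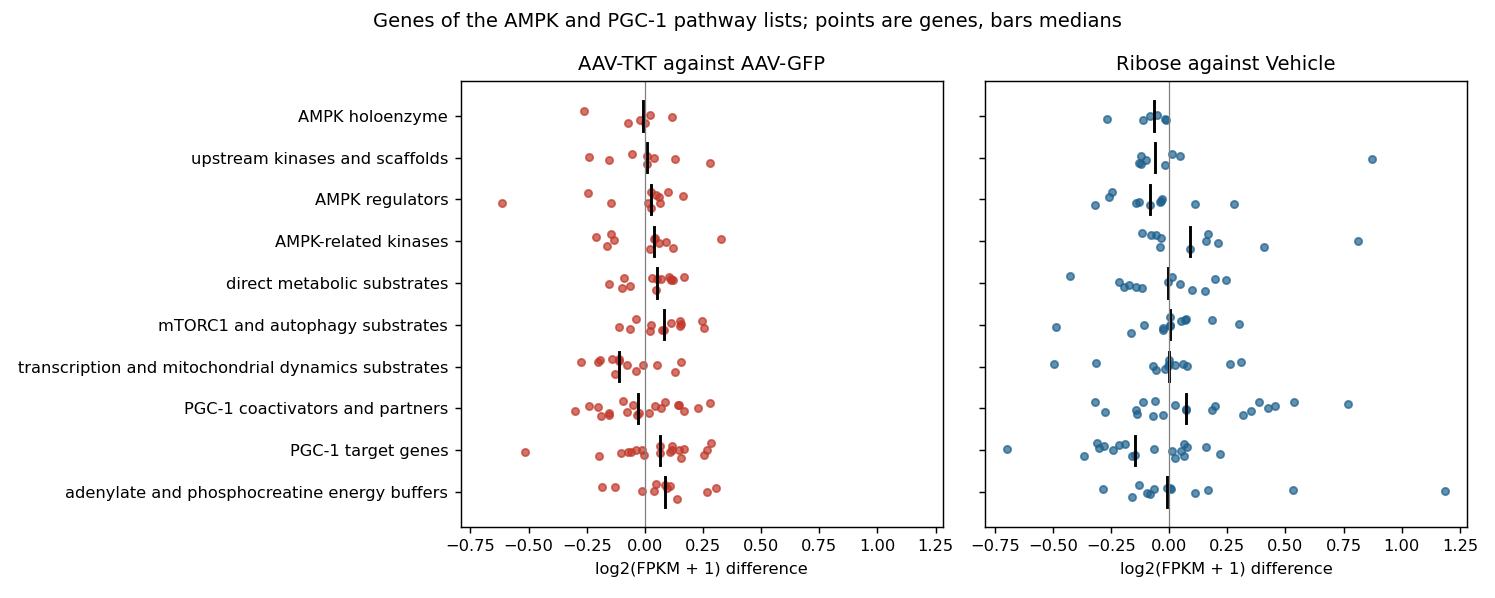
Log2(FPKM + 1) difference of each tested gene in the lists around AMPK, AAV-TKT minus AAV-GFP on the left and Ribose minus Vehicle on the right, with the median of each list. The medians lie between -0.15 and 0.089, and no gene passed the adjusted threshold.

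The effects of the treatments on the members were also compared directly, as the AAV-TKT effect minus the Ribose effect over 12853 genes tested in both tables. For 0 of 8 members did the effects differ, against 0.00778% of all genes, and the limma adjusted p-values lay between 0.895 and 0.998. At an unadjusted p under 0.05 the count was 0 of 8, against 6.85% of all genes. The largest differences were -0.18 for Ppargc1a (SE 0.32) and 0.16 for Stk11 (SE 0.16) on the log2 scale. The experiments have separate control groups.

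In GRCm38 with the GENCODE M21 annotation, the alpha genes are Prkaa1 at chr15:5143861-5181899 (plus strand) and Prkaa2 at chr4:105029874-105109890 (minus strand). The beta genes are Prkab1 at chr5:116013586-116024508 (minus) and Prkab2 at chr3:97658193-97673812 (plus). The gamma genes are Prkag1 at chr15:98812797-98831521 and Prkag2 at chr5:24862744-25100642 (both minus). Stk11 is at chr10:80115803-80130682 (plus) and Ppargc1a at chr5:51454250-51567726 (minus). All members except Prkaa2 overlap a gene of the opposite strand, such as Cbarp for Stk11 and B130046B21Rik for Prkag1. The libraries were made with a directional kit, but whether strand was used in counting is not given in the sources used here, so part of their values could come from the partner. Ppargc1a also overlaps Gm42614, Gm42615 and Gm43605 on its own strand, which counting by strand would not separate. The members share few sequences with other genes: at most 0.408% of the 31-base words of a member occur in another gene, and Prkaa1 and Prkaa2 share 0.108% of the words of Prkaa1.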

How the data were processed

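RNA was sequenced from 12 libraries in 4 groups of 3. Per the labels' protocols, an RNeasy Micro kit and a directional library kit were used on polyadenylated RNA. The submitters' processing notes name bcl2fastq 2.20, FastQC, Trim Galore and the build GRCm38, and the aligner, counter and annotation release were not given in the sources used here. Values were deposited by the authors as FPKM per gene, with 1 table for each experiment. The tables are normalized separately, so only differences within a table were tested. Every gene of the virus table had a mean of at least 1 FPKM (lowest mean 1.00). FPKM totals per library ran from 413635 to 456084 in the virus and 510551 to 551370 in the ribose table. Depth is unknown: no common step of whole reads was found in the low values.

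From these values, log2(FPKM + 1) was fitted with limma 3.58.1 in R 4.3.3 (intensity trend in the variance prior) where a gene's mean reached 1 FPKM, and p-values were adjusted by the Benjamini-Hochberg method within each table at a threshold of 0.05. Fold changes on this scale understate the change of low genes. The difference of the effects was fitted over all 12 libraries. The fit was checked on simulated data of independent noise, with changes larger than the differences of the members. That check does not bear on whether small changes could be detected. Symbols were taken from GENCODE M21, for 13170 of 13178 and 21612 of 21650 identifiers. Promoter windows came from RefSeq. Named genes were the 8 members, Tkt, Prkag3, the 3 genes with the smallest p of each pathway list per comparison, and the 2 protein-coding genes most like each member. The members and lists were chosen with earlier results of these data known. Alternatives were other pseudocounts, filters, scalings, a replicate block, library weights, protein-coding genes alone and each library left out.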

Additional observations from a re-analysis of the deposited data

Results flagged for a closer look

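A difference between the effects of transketolase and of ribose marked 4 genes. Tkt, the delivered gene, was the one gene called, with a log2 difference of effects of 1.40 (limma adjusted p = 0.00114). The others were marked because the groups were separated in opposite directions in the experiments, and the difference of effects did not pass in limma. Separation in either direction occurred for 18.5% of all genes in the virus and 9.63% in the ribose experiment. The share of all genes separated in opposite directions is not given here. For Lamtor1 the difference of effects was 0.49 (limma adjusted p = 0.667), with the AAV-TKT libraries above those of AAV-GFP and the Ribose libraries below those of Vehicle. Becn1 had the same order at 0.41 (limma adjusted p = 0.687), with 73.7, 82.5 and 73.8 FPKM in Ribose, against 83.3, 83.0 and 91.6 FPKM in Vehicle. Sik1 had the opposite order at -0.62 (limma adjusted p = 0.690), with 2.67, 2.43 and 2.68 FPKM in AAV-TKT, against 3.25, 3.08 and 3.15 FPKM in AAV-GFP, and 5.31, 3.01 and 3.05 FPKM in Ribose, against 2.47, 2.26 and 2.87 FPKM in Vehicle.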

How the results depend on the processing

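The count of members past the threshold was 0 in each experiment under all alternatives run. Prkab1 was not tested under the filter of a mean of at least 5 FPKM. No named pathway gene was called or changed direction under any alternative in which it was tested. Leaving out a library moved the log2 difference by over 1.5 times for 13 of 27 named pathway genes in the virus and 15 of 26 in the ribose experiment. The count over all genes was less stable. In the virus experiment it was 2, and 5 with a pseudocount of 0.1, 4 with a mean of at least 5 FPKM, 23 with weights per library, 8 for protein-coding genes alone, and 1 to 40 with a library left out (40 without AAV-GFP replicate 2, 5 without AAV-TKT replicate 2, 4 without AAV-GFP replicate 3 and 1 without AAV-GFP replicate 1). In the ribose experiment it was 1, and 2 with a pseudocount of 0.5, 0 for protein-coding genes alone, 3 without both replicate 2 libraries, and 1 to 4 with 1 library left out (4 without Ribose replicate 2, and 2 without Ribose replicate 3, Vehicle replicate 2 or Vehicle replicate 3). For the difference of effects it was 1, and 12 without both replicate 2 libraries and 1 to 3 with a library left out (3 without Ribose replicate 2 or Vehicle replicate 3, and 2 without Ribose replicate 3).

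Several small log2 differences turned sign, none of them called. In the virus experiment Prkaa1 became -0.054 with equal totals, -0.022 with median-of-ratios scaling and -0.041 with quantile normalization, and Prkab2 became -0.032, -0.00040 and -0.0044 in the same order. Stk11 became -0.015 with equal totals, and Prkag2 became 0.028 with library weights. In the ribose experiment Prkaa2 became 0.026 with equal totals, 0.00037 with quantile normalization, 0.081 with weights and 0.071 without both replicate 2 libraries, and Prkag1 became 0.024 with equal totals. For the difference of effects, Prkab1 became -0.0037 with a pseudocount of 0.5 and -0.012 with median-of-ratios scaling, Prkaa1 -0.027 and Prkag2 -0.052 with quantile normalization, and Ppargc1a 0.11 without both replicate 2 libraries. The cause was not tested. With 1 library left out, log2 differences in the virus experiment ran from -0.083 to 0.094 for Prkaa1, -0.13 to 0.016 for Prkaa2, -0.074 to 0.068 for Prkag2 and -0.0011 to 0.092 for Stk11. In the ribose experiment they ran from -0.11 to 0.16 for Prkaa2, -0.029 to 0.00098 for Prkag1 and -0.18 to 0.097 for Prkag2. There the alpha share differed by -1.26 to 3.06 points and the gamma share by -2.71 to 1.70 points. The differences of effects ran from -0.030 to 0.15 for Prkaa1, -0.23 to 0.044 for Prkaa2, -0.20 to 0.21 for Prkab1, -0.12 to 0.16 for Prkag2 and -0.35 to 0.14 for Ppargc1a.

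Deviations of same-numbered libraries correlated at 0.0326, 0.0707 and -0.0144 in the virus and 0.0418, 0.357 and 0.160 in the ribose experiment. For differently numbered libraries the values ran from -0.104 to 0.0795 in the virus and from -0.260 to 0.145 in the ribose experiment. Whether replicate numbers pair the samples was not tested. With the replicate block the all-gene counts were 0 and 1 in the virus and the ribose experiment and no member passed. Prkab1 fell below the filter of 5 FPKM. Scaling moved the median of all genes by less than 0.1 (log2) throughout. Depth is unknown, so its limit on the scarce Prkab1 cannot be given.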
